A study of Mus musculus with 6 samples.

Results

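The 10 genes described here encode the EGF-family receptors Egfr, Erbb2, Erbb3 and Erbb4, the EGFR ligands betacellulin (Btc), amphiregulin (Areg), heparin-binding EGF-like growth factor (Hbegf) and transforming growth factor alpha (Tgfa), hepatocyte growth factor (Hgf) and its receptor Met. They were chosen by gene symbol from the 48397 genes of the count tables, and all 10 passed the filter on low counts, which left 23924 genes to test. The RNA was that of pancreatic islets isolated from wild-type C57B6 mice, a mixture of endocrine and other cells that had recovered overnight in culture. One group of islets received 500 ng/mL of recombinant mouse prolactin for 24 h, and the other received DMSO, the control, for 24 h; no other agent or allele distinguishes the groups in the labels. Each group had 3 libraries of polyadenylated RNA. Separate animals or cultures are not recorded for them, so every p-value below rests on a spread among libraries that could be technical.

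The libraries held 230833584 to 264885071 assigned reads in prolactin and 264466143 to 530296257 in control. The 8 beta-cell markers, insulin genes included, summed to between 116856 and 122288 CPM in prolactin libraries and between 114627 and 141165 CPM in control libraries, where CPM are counts scaled to a common library size with TMM, a correction for differences in RNA composition. As a check that the hormone acted, the STAT5 target Cish stood at 39.8 ± 2.9 CPM in prolactin and 8.16 ± 0.58 CPM in control (SD, n = 3 each; edgeR adjusted p = 7.87e-06), and Socs2, Prlr and Tph1 were called higher too. Across all genes, edgeR's quasi-likelihood test called 181 at a Benjamini-Hochberg adjusted p under 0.05, which is 0.757% of those tested (0.652% higher and 0.104% lower in prolactin). That number moved when single libraries were left out, which also leaves fewer libraries to test with. It was 94, 40 and 41 without prolactin replicates 1, 2 and 3. It was 136, 73 and 576 without control replicates 1, 2 and 3.

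The EGF-family ligands are made as membrane-bound precursors, released by shedding proteases such as ADAM17, and bind receptor tyrosine kinases that work in pairs. EGFR binds amphiregulin and TGF-alpha, betacellulin and HB-EGF bind both EGFR and ERBB4, ERBB2 has no known ligand and acts as a partner, and ERBB3 binds neuregulins but has little kinase activity of its own. HGF is secreted mainly by mesenchymal and endothelial cells as an inactive chain, is cleaved by serine proteases and acts through MET on neighbouring epithelial cells. In mouse islets, both EGFR and MET signalling are known to take part in the growth of the beta-cell population, pregnancy included, and prolactin acts through its own receptor, JAK2 and STAT5.

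RefSeq promoter windows on GRCm38.p6, the assembly of mm10, run from 250 bases before to 50 bases after a transcript start. Windows of 8 of the 10 genes (9 windows) were examined. Erbb3 and Hbegf were not among them, and whether RefSeq holds a window for either was not established. The statements on motifs below therefore do not cover Erbb3 and Hbegf. Both strands were searched for 5 motifs: the STAT-type site TTCNNNGAA, the cyclic AMP response element TGACGTCA, the AP-1 site TGANTCA, the TATA box TATAAA and the GC box GGGCGG. Over all 32851 windows, 8.3% hold the STAT-type site, 1.79% the cyclic AMP response element, 7.81% the AP-1 site, 13.6% the TATA box and 35.7% the GC box. The windows printed are those of Areg, as the ligand window with a TATA box, Egfr, as a receptor window without one, and Cish, as a prolactin-responsive gene for comparison, each 5′ to 3′ on the gene's strand with motif matches in capitals.
Areg, chr5:91139349-91139648, plus strand: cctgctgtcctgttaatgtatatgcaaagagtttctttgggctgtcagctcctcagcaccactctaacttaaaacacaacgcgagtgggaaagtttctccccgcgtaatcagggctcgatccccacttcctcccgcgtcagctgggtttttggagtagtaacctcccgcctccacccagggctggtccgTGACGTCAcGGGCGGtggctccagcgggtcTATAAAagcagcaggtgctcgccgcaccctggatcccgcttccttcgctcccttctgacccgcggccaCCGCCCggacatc
Egfr, chr11:16751953-16752252, plus strand: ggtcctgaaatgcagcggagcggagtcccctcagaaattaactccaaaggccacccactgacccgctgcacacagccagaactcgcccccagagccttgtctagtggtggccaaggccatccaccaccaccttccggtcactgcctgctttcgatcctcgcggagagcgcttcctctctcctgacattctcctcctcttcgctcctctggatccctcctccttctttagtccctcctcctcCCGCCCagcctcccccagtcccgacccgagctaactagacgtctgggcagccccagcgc
Cish, chr9:107296409-107296708, plus strand: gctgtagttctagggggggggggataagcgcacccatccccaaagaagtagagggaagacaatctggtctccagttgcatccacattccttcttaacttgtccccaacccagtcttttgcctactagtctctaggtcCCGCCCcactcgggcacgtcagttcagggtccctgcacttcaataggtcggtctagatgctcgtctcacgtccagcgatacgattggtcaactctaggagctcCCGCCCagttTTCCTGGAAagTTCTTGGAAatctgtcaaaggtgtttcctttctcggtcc
The Areg window holds the cyclic AMP response element 61 bases before the start, the TATA box 31 bases before it, and 2 GC boxes. The Egfr window holds 1 GC box, on the opposite strand, and none of the other 4 motifs. The Cish window holds 2 STAT-type sites, 11 bases apart, from the start base on. No STAT-type site was found in any of the 9 windows of the 8 genes, which says only that these letters are not in these windows. The Met window was the 1 member window with an AP-1 site, 54 bases before the start, and the most GC-rich at 75.7% G or C, against a median of 52.7% over all windows; the Hgf windows had 51.3% each. These matches are descriptions of the letters and not evidence of binding.

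Per kilobase of exons, Hbegf was the most abundant of the 10 transcripts and Erbb4 the least. Over the 6 libraries Hbegf averaged 8.47 CPM per kb, Met 5.81, Areg 4.44, Erbb3 3.31, Egfr 3.26, Tgfa 1.3, Btc 1.21, Erbb2 0.959, Hgf 0.37 and Erbb4 0.03. Of neighbours in this order, Erbb3 and Egfr could not be ranked, since Erbb3 was the higher in 3 of 6 libraries, and Tgfa was above Btc in 2 of 6. Met was above Areg in all 6 libraries and Btc above Erbb2 in 5 of 6, although the ranges of both pairs overlapped. Other neighbours did not overlap over the 6 libraries. Without the correction for length the order differs: by plain CPM the first ranks are Met, Egfr and Hbegf, and Areg has rank 7. On the scale of CPM, Met at 44.6 lay above 80% of all tested genes and Egfr at 36.9 above 76.9%, whereas Hgf at 2.66 lay above 46.5% and Erbb4 at 0.371 above 28.6%.

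**Figure D1:**
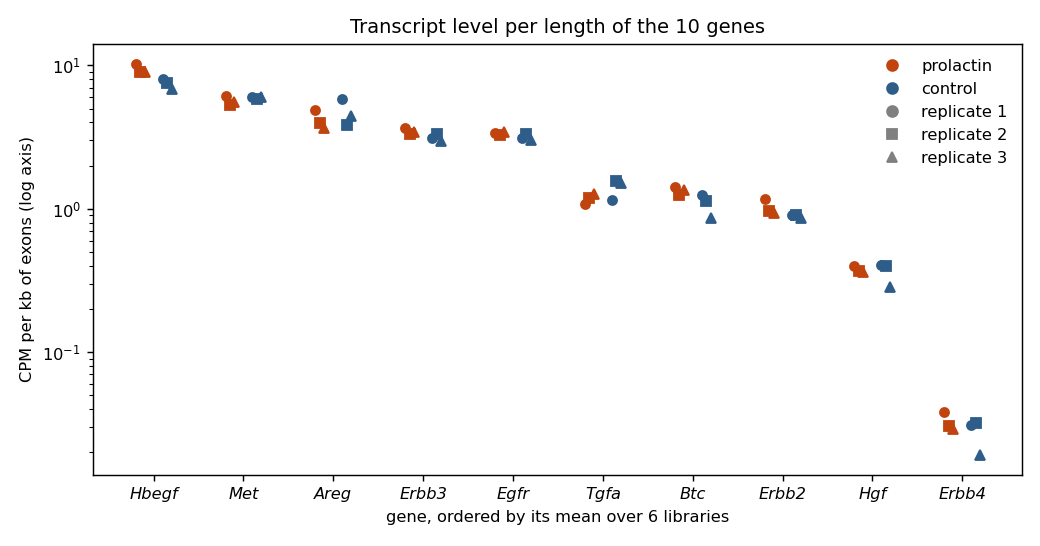
CPM per kilobase of exons on a log axis for each gene, ordered by its mean over the 6 libraries; points are single libraries, prolactin left of control. Hbegf lies at the top (mean 8.47) and Erbb4 far below the others (mean 0.03), and the spacing between most genes exceeds that between the groups.

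Among the 4 EGF-family receptors, the make-up was alike in the groups. Egfr made up 42.7% ± 1.5 of the summed receptor CPM per kb in prolactin and 43.6% ± 0.43 in control, Erbb3 43.9% ± 0.32 in prolactin and 43.6% ± 0.19 in control, and Erbb2 12.9% ± 1.1 in prolactin and 12.4% ± 0.33 in control (SD, n = 3 each). Erbb4 stayed under 0.5% in every library. On this scale the messages of EGFR and ERBB3 stood side by side in both groups, ERBB2 lower and ERBB4 far below.

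Egfr (mm10 chromosome 11, 16752203 to 16918158), the receptor shared by all 4 ligands studied, had 38.5, 37.3 and 39.0 CPM in prolactin replicates 1 to 3, against 35.1, 37.6 and 34.1 CPM in control replicates 1 to 3. The groups overlap, because control replicate 2 lies above prolactin replicate 2. Its log2 change, prolactin over control, was 0.10 (SE 0.055, 95% interval -0.02 to 0.23, edgeR adjusted p = 0.434). The upper end of that interval is a 1.17-fold level.

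Erbb2 (chromosome 11, 98412470 to 98437716), the ligandless partner, had 6.1, 5.03 and 4.9 CPM in prolactin libraries and 4.73, 4.74 and 4.48 CPM in control libraries. All 3 prolactin values lie above the control values, but prolactin replicate 1 stands apart from the other 2. The log2 change of 0.20 (SE 0.10, interval -0.03 to 0.43, edgeR adjusted p = 0.418) was 0.09 without that library.

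Erbb3 (chromosome 10, 128567523 to 128589652), the neuregulin receptor with a weak kinase, had 22.0, 20.1 and 20.6 CPM in prolactin libraries and 18.9, 19.8 and 17.9 CPM in control libraries. The groups do not overlap, yet the gap between prolactin replicate 2 and control replicate 2 is small. The log2 change was 0.14 (SE 0.063, unadjusted p = 0.0482, edgeR adjusted p = 0.34).

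Erbb4 (chromosome 1, 68032186 to 69108059) was counted 88 to 110 times per library in prolactin and 63 to 206 times in control. That gave 0.475, 0.378 and 0.359 CPM in prolactin libraries and 0.384, 0.394 and 0.235 CPM in control libraries. Control replicate 3 was the lowest and the groups overlap. The 95% interval of the change, 0.82-fold to 1.72-fold, includes no change (log2 change 0.25, SE 0.24, edgeR adjusted p = 0.687). The estimate was 0.05 without control replicate 3.

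Met (chromosome 6, 17463800 to 17573980), the HGF receptor, was the transcript with the most reads of the 10, at 81104 over the 6 libraries. It had 47.0, 40.8 and 43.0 CPM in prolactin libraries and 46.5, 44.5 and 46.0 CPM in control libraries. Prolactin replicate 1 is the highest of all and prolactin replicate 2 the lowest, so the groups overlap. The log2 change of -0.07 (SE 0.061, interval -0.21 to 0.07, edgeR adjusted p = 0.68) has an interval that spans 0.867-fold to 1.05-fold, the narrowest of the 10 after that of Egfr.

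Its ligand Hgf (chromosome 5, 16553495 to 16620152) had 2.89, 2.63 and 2.6 CPM in prolactin libraries and 2.91, 2.87 and 2.04 CPM in control libraries. The groups overlap, and control replicate 3 alone is low. Hgf averaged 2.71 ± 0.16 CPM in prolactin and 2.6 ± 0.49 CPM in control (SD, n = 3 each; log2 change 0.05, SE 0.15, edgeR adjusted p = 0.903). The change was -0.09 without control replicate 3. In that library the 10 markers of stellate cells, fibroblasts and pericytes, which include cells known to make HGF, summed to 367.5 CPM, the lowest of all; they summed to 735 to 916 CPM in prolactin libraries and to 367.5 to 546.2 CPM in control libraries. Endothelial cells are the other source named above, and their 7 markers were not low there. They summed to 323.6 CPM in control replicate 3, against 287.7 and 280.4 CPM in control replicates 1 and 2. In prolactin libraries they summed to 326.2 to 335.6 CPM. The part of these cell types in the Hgf values was not tested. In such bulk RNA, fewer cells of a type and less RNA per cell cannot be told apart. Gm43489, a locus on the same strand, shares 6.74% of the Hgf exon bases and was counted 62 times in all, against 4857 for Hgf.

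**Figure D2:**
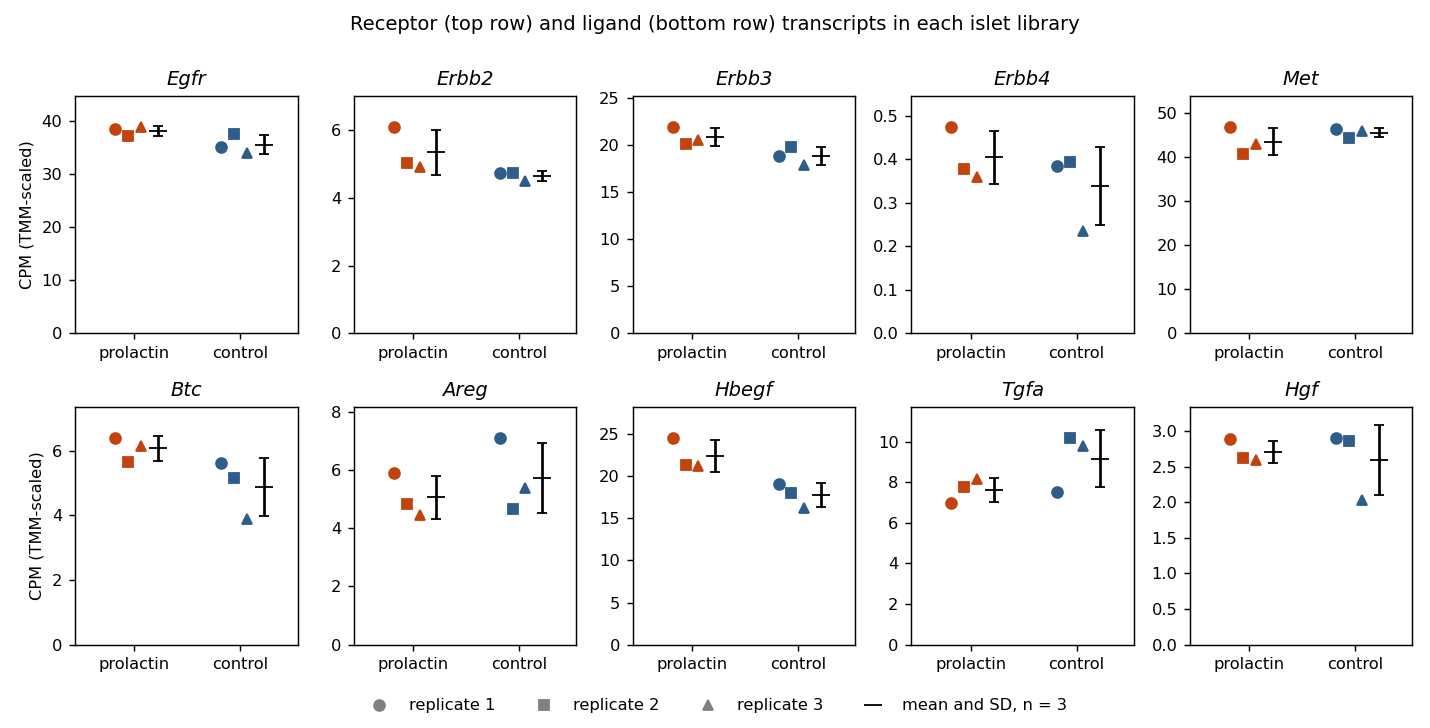
CPM of each gene in every library, receptors in the top row and ligands below, prolactin left of control, each axis starting at 0; marker shapes give the replicate, and the black bar is the mean with its SD (n = 3). The prolactin libraries all lie above the control libraries for Erbb2, Erbb3, Btc and Hbegf, and the groups overlap for the other 6 genes.

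Of the EGFR ligands, Hbegf differed most between the groups, although it did not pass the test. Hbegf (chromosome 18, 36504929 to 36515805) had 24.6, 21.4 and 21.3 CPM in prolactin libraries, against 19.1, 18.0 and 16.3 CPM in control libraries. The lowest prolactin library stands above the highest control library, so that the groups do not overlap. Hbegf averaged 22.4 ± 1.9 CPM in prolactin and 17.8 ± 1.4 CPM in control (SD, n = 3 each), a log2 change of 0.33 (SE 0.081, interval 0.15 to 0.52, unadjusted p = 0.00261, edgeR adjusted p = 0.111), or 1.26-fold. It ranked 564th by p among the 23924 genes. The change kept its sign in all 6 fits without 1 library, with log2 values from 0.26 to 0.39 and adjusted p from 0.0958 to 0.31. The call depends on the method: the edgeR fit with the replicate number as a block gave an adjusted p of 0.0224, the fit without a filter 0.0284, and DESeq2 0.00703. In the authors' deposited table, Hbegf has a log2 fold change of 0.34 (SE 0.09, adjusted p = 0.00689). It is the 1 gene of the 10 with an adjusted p under 0.05, where 5.71% of the genes with an adjusted p in that table are below 0.05. That comparison is of the same libraries, and the submitters' processing notes name DESeq2, so it is not a separate pass.

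Btc (chromosome 5, 91357261 to 91402994) had 6.4, 5.65 and 6.16 CPM in prolactin libraries and 5.63, 5.16 and 3.89 CPM in control libraries. The groups touch but do not overlap, with prolactin replicate 2 just above control replicate 1, and control replicate 3 is low. The log2 change was 0.31 (SE 0.13, unadjusted p = 0.0465, edgeR adjusted p = 0.337); it was 0.17 without control replicate 3.

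Tgfa (chromosome 6, 86195223 to 86275719) was on average lower in prolactin, with 7.0, 7.75 and 8.18 CPM in prolactin libraries and 7.53, 10.2 and 9.79 CPM in control libraries. Control replicate 1 lies among the prolactin libraries, so the groups overlap. The log2 change was -0.26 (SE 0.12, interval -0.53 to 0.01, edgeR adjusted p = 0.36); it was -0.39 without control replicate 1.

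Areg (chromosome 5, 91139599 to 91148432), a ligand of EGFR alone, had 5.9, 4.82 and 4.45 CPM in prolactin libraries and 7.11, 4.67 and 5.4 CPM in control libraries. The groups overlap, and control replicate 1 stands above the rest. The log2 change of -0.18 (SE 0.16, edgeR adjusted p = 0.666) was 0.01 without that library.

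Hbegf was also the larger part of the 4 ligands per length in both groups. It made up 58.6% ± 0.17 of the summed CPM per kb of Btc, Areg, Hbegf and Tgfa in prolactin and 51.0% ± 2.3 in control (SD, n = 3 each). Areg made up 25.7% ± 1.7 in prolactin and 31.9% ± 4.4 in control, Tgfa 7.36% ± 1.1 in prolactin and 9.76% ± 2.3 in control, and Btc 8.34% ± 0.52 in prolactin and 7.34% ± 0.93 in control. These shares are a description, since the choice of the genes fixes what they sum to, and no test was made of them.

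Counted over the 10 genes, 0 were called higher and 0 lower by edgeR's quasi-likelihood test, where 0.757% of all genes were called. At an unadjusted p under 0.05 there were 3, Hbegf, Btc and Erbb3, all higher in prolactin, where 14.5% of all genes reach that level. DESeq2 called 1 (Hbegf), where it called 5.53% of all genes, and limma-voom 0, where it called 0.74%. The groups did not overlap for 4 of the 10 genes, Erbb2, Erbb3, Btc and Hbegf, where 21.6% of all tested genes show no overlap. Their median log2 change was 0.12, from -0.26 to 0.33, beside a median of 0.00 over all genes tested. None of the 10 intervals reached a 2-fold difference: the highest upper end was 1.72-fold (Erbb4) and the lowest lower end 0.683-fold (Areg).

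**Figure D3:**
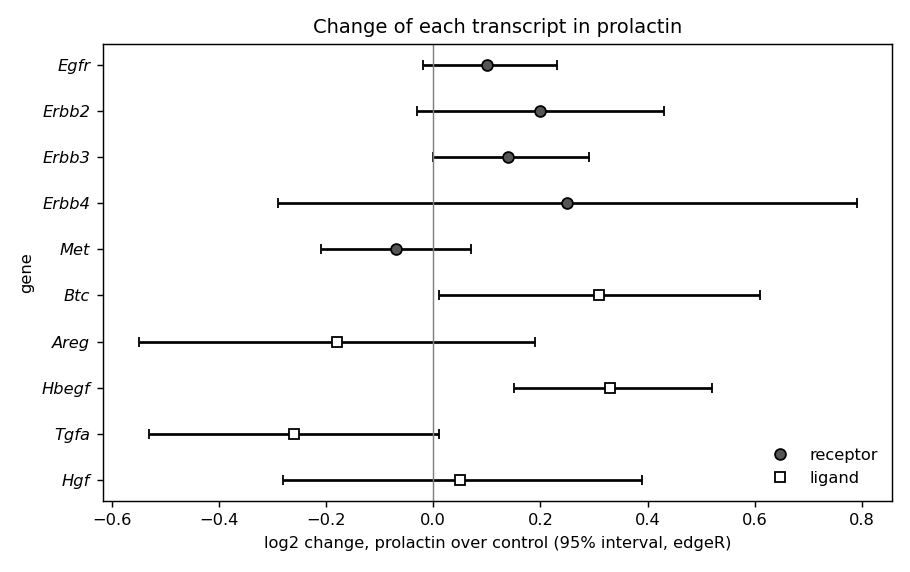
Log2 change of each gene, prolactin over control, with its 95% interval from the edgeR fit; filled circles are receptors and open squares ligands. Hbegf (0.33) has the interval farthest from 0, and 0 of the 10 genes passed the adjusted test.

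The other genes of the pathway were read from the same fit, in 5 lists. Of 7 further ERBB ligands, edgeR called 0, limma-voom 0 and DESeq2 1 (lower, where DESeq2 called 5.53% of all genes), with a median log2 change of 0.25. At an unadjusted p under 0.05 there was 1 of 7, a share near the 14.5% of all genes. This was Egf itself, with 14.2, 16.2 and 16.4 CPM in prolactin libraries and 18.2, 18.2 and 20.8 CPM in control libraries. All 3 prolactin values lie below the control values (log2 change -0.29, SE 0.081, edgeR adjusted p = 0.155). Of the Egf exon bases, 4.43% and 5.38% are shared with 2 loci on the opposite strand, and the counting did not use strand; those loci were counted 123 and 127 times in all, against 31676 for Egf. The neuregulin genes, whose products bind ERBB3, ERBB4 or both, were scarce. Nrg1 averaged 1.96 ± 0.33 CPM in prolactin and 1.53 ± 0.40 CPM in control (SD, n = 3 each). Nrg2 averaged 1.31 ± 0.14 CPM in prolactin and 1.11 ± 0.071 CPM in control (SD, n = 3 each). Nrg3 was lower still, at 0.487 ± 0.13 CPM in prolactin and 0.327 ± 0.17 CPM in control (SD, n = 3 each).

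Among 12 genes for ligand shedding and HGF activation, edgeR called 0, limma-voom 0 and DESeq2 2 (both higher, where DESeq2 called 5.53% of all genes). At an unadjusted p under 0.05 there were 3 of 12 (2 higher, 1 lower), against 14.5% of all genes. The median log2 change was 0.16. Plau, the urokinase protease known to cleave pro-HGF, had 12.9, 10.6 and 9.71 CPM in prolactin libraries and 8.01, 7.47 and 6.82 CPM in control libraries. The groups are clear of each other (log2 change 0.57, SE 0.11, edgeR adjusted p = 0.0608). The highest Plau value is in prolactin replicate 1, where the stromal markers are also highest (916 CPM summed). The sheddase gene Adam17 averaged 33.1 ± 1.4 CPM in prolactin and 37.0 ± 1.4 CPM in control (SD, n = 3 each; log2 change -0.16, edgeR adjusted p = 0.238). The matriptase gene St14 and the protease inhibitor gene Spint2, both tied to the activation of HGF, had edgeR adjusted p of 0.163 and 0.366. Hgfac, whose product activates HGF, averaged 80.8 ± 2.3 CPM in prolactin and 75.1 ± 5.2 CPM in control (edgeR adjusted p = 0.479).

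Of 23 adaptors and kinases that act after the receptors, edgeR, DESeq2 and limma-voom each called 0, while 4 of 23, all of them higher, had an unadjusted p under 0.05, a share near the 14.5% of all genes. Log2 changes lay between -0.07 and 0.20, with a median of 0.02. The largest was that of Pik3r1, the regulatory subunit of PI3-kinase, with 140.9 ± 3.3 CPM in prolactin and 122.4 ± 8.8 CPM in control (SD, n = 3 each; log2 change 0.20, edgeR adjusted p = 0.193). The kinase genes Src and Akt1 and the adaptor gene Gab1 had log2 changes of 0.15, 0.16 and 0.16 (edgeR adjusted p from 0.284 to 0.318).

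Of 15 feedback inhibitors of receptor signalling, edgeR called 0, limma-voom 0 and DESeq2 2 (5.53% of all genes in DESeq2). In edgeR 5 of 15 had an unadjusted p under 0.05, against 14.5% of all genes. Log2 changes lay between 0.01 and 0.31 with a median of 0.13, and 15 of 15 were positive, as were 50.1% of those of all genes; no test was made of that count. Dusp5, an ERK phosphatase, came closest, with 45.8, 42.1 and 42.5 CPM in prolactin libraries and 36.8, 34.4 and 34.1 CPM in control libraries. Its groups do not overlap (log2 change 0.31, SE 0.057, edgeR adjusted p = 0.051). In edgeR it passed without control replicate 3 (adjusted p = 0.0486), without a filter (0.0136) and under the filter of 1 CPM in 3 libraries (0.0483). It also passed with the replicate number as a block (edgeR adjusted p = 0.0155) and by DESeq2 (adjusted p = 0.00102). The Sprouty genes, inhibitors of the RAS pathway, had log2 changes of 0.28 (Spry4, edgeR adjusted p = 0.147), 0.23 (Spry1, 0.27) and 0.15 (Spry2, 0.275). Errfi1, a direct inhibitor of EGFR and ERBB2 kinases, averaged 58.9 ± 3.2 CPM in prolactin and 56.2 ± 3.7 CPM in control (SD, n = 3 each; edgeR adjusted p = 0.684).

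Of 10 transcripts that growth factors induce through ERK, edgeR called 1 higher (Myc) and 0 lower, and 9 did not pass. It called 0.757% of all genes. DESeq2 called 2 higher and 1 lower, where it called 5.53% of all genes, and limma-voom 1 (Myc), where it called 0.74%. At an unadjusted p under 0.05 in edgeR there were 3 higher and 1 lower, against 14.5% of all genes. The median log2 change was 0.14. Myc (chromosome 15, 61985341 to 61990374), a growth-promoting transcription factor that many signals induce, had 23.5, 22.5 and 22.3 CPM in prolactin libraries, against 15.5, 15.3 and 14.6 CPM in control libraries. The groups lie far apart (log2 change 0.59, SE 0.056, edgeR adjusted p = 0.00231). Myc passed in all 16 alternative fits. The ERK-dependent ETS factor Etv5 lay on the other side, with 20.3 ± 0.25 CPM in prolactin and 25.7 ± 2.0 CPM in control (SD, n = 3 each). Its log2 change was -0.34 (SE 0.065, edgeR adjusted p = 0.0564). In edgeR Etv5 passed without control replicate 3 (log2 change -0.28, adjusted p = 0.0371), without a filter (0.0132) and with the replicate block (0.023). It also passed by DESeq2 (adjusted p = 0.00115). Fosl1, an AP-1 subunit, had a log2 change of 0.33 (edgeR adjusted p = 0.124), Phlda1 of 0.21 (0.329) and Ccnd1, the cyclin D1 gene, of 0.15 (0.349). Ccnd1 shares 23.36% of its exon bases with Oraov1 on the opposite strand, which was counted 52225 times against 184554 for Ccnd1, so reads of the shared part cannot be told apart.

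**Figure D4:**
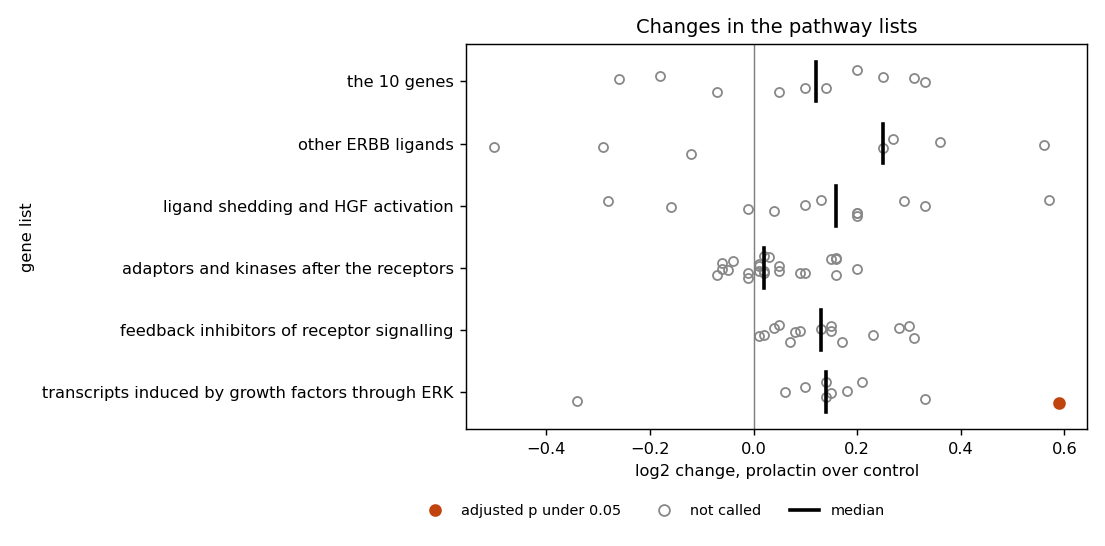
Log2 change, prolactin over control, of each gene in the 5 pathway lists and of the 10 genes; black bars are medians, filled points have an adjusted p under 0.05. Myc is the 1 filled point (0.59).

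The libraries also differed in markers of other cell types, which were set beside these values. All 10 markers of stellate cells, fibroblasts and pericytes had positive log2 changes and 2 were called higher. Over all genes tested, 50.1% of changes were positive, with 0.652% called higher and 0.104% lower. All 7 endothelial markers were positive too, with 1 called higher, and all 5 Schwann-cell markers, with 0 called. Of 6 alpha-cell markers, 5 were positive and 1 called higher. Among 3 delta-cell markers, 1 was positive and 1 called lower, and the PP-cell marker was negative. Macrophage markers were positive in 3 of 6, beta-cell markers in 3 of 8 and acinar markers in 0 of 9. The 8 ductal markers, of cells known to express EGFR and MET, summed to 1307 to 1853 CPM in prolactin libraries and 1046 to 1613 CPM in control libraries, with 7 of 8 changes positive and 0 called. Acinar markers (9) summed to 765.6 to 1742 CPM in prolactin libraries and 455 to 2665 CPM in control libraries, and alpha-cell markers (6) to 34923 to 36278 CPM in prolactin libraries and 23309 to 37278 CPM in control libraries. Prolactin replicate 1 held the most stromal and ductal marker RNA and also the highest Erbb2, Erbb3, Erbb4, Met, Btc and Hbegf. By summed CPM, control replicate 3 held the least of both, and it had the lowest Egfr, Erbb2, Erbb3, Erbb4, Btc, Hbegf and Hgf. By mean log2(CPM + 0.1), minus its mean over the 6 libraries, the ductal markers were lowest in control replicate 2 (-0.15, against -0.13 in control replicate 3). Control replicate 3 also had the highest acinar sum (2665 CPM) and the lowest alpha-cell (23309 CPM) and Schwann-cell sums (23 CPM). No marker in any list averaged 0; the lowest average was 0.17 CPM, among the acinar markers. Whether the make-up of the libraries accounts for any of the differences was not tested. Without prolactin replicate 1 the log2 change of Hbegf was 0.26 (adjusted p = 0.3) and without control replicate 3 it was 0.27 (adjusted p = 0.0958).

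**Figure D5:**
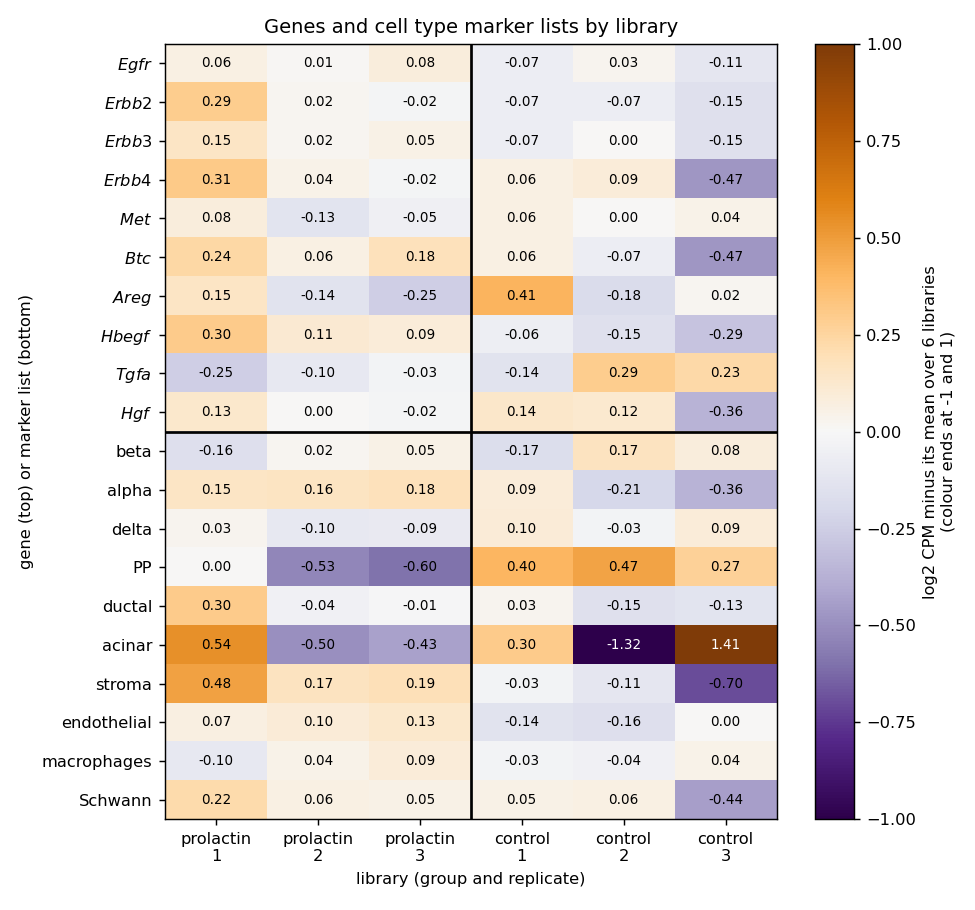
Log2(CPM + 0.1) of each gene (top) and mean of the same for each marker list (bottom) in every library, minus its mean over the 6 libraries; stroma stands for stellate cells, fibroblasts and pericytes, and the colour scale ends at -1 and 1. Control replicate 3 is low for Btc (-0.47), Erbb4 (-0.47), Hgf (-0.36), stroma (-0.70), Schwann (-0.44) and alpha (-0.36), and high for acinar (1.41). Prolactin replicate 1 is high for Erbb4 (0.31), Hbegf (0.30), stroma (0.48) and acinar (0.54).

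The genes with the most similar pattern over the 6 libraries were sought among 10998 or 10999 genes with a name with a mean of at least 5 CPM, by Pearson's r of log2(CPM + 0.1). They were Hmga1 and Oaf for Egfr, Ext1 and Nfib for Erbb2, Rexo2 and Tssc4 for Erbb3, and Fam134b and Ogfr for Met. For the ligands they were Rps13-ps1 and Dlg2 for Btc, H2-Q7 and P4ha1 for Areg, Emp2 and Qk for Hbegf, Them6 and Ankle2 for Tgfa, and Wdr75 and Rpsa for Hgf. The r values ran from 0.985 (P4ha1) to 0.9987 (Hmga1). With 6 libraries and so many genes, values this high were found for each of the 9 genes searched: between 8 (Met) and 190 (Hgf) genes had an r over 0.95. The libraries share their group, depth and cell make-up, and nothing is drawn from these likenesses.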

How the data were processed

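Polyadenylated RNA of cultured islets was sequenced in 3 prolactin and 3 control libraries. The deposited values are whole-number read counts per gene name, made by the authors with featureCounts 2.0.3 on gene models of GENCODE vM10, per the file headers. Further names in the submitters' processing notes are the mm10 build, SAMtools 1.21, Subread 2.1.0 and DESeq2, with alignment itself not given in the labels or headers used here. The command line does not use strand and counts mates of a pair as reads, so counts can overstate fragments (53.9% to 56.3% of counts from 1 to 20 were even) and no counting interval is given. The authors' own comparison is also deposited: its headers list log2 fold changes with SE, p-values, a test score and a mean signal.

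The counts were fitted in edgeR 4.0.16 (R 4.3.3), using TMM scaling, the tool's expression filter (minimum count 10, minimum total 15) and the group as the only term, two-sided, with Benjamini-Hochberg adjustment over all genes tested. The SE was taken from the test statistic, and 95% intervals are not adjusted. CPM per kb use the exon length of the count tables. DESeq2 1.42.0, limma-voom (limma 3.58.1), 2 other scalings, 2 other filters, the replicate number as a block, omission of hormone and mitochondrial genes, halved counts, summed prolactin replicates 2 and 3 and omission of each library were the alternatives. Prolactin replicates 2 and 3 were closer than other pairs (chi-square per gene 6.64, against 78.2 to 220 for other pairs within a group). Whether they are separate samples cannot be told from the counts; they were kept as labelled, as 2 samples, and with them summed 44 genes were called in place of 181.

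The members and lists were chosen with earlier results of these data known. Named were all 10 members, the called genes and up to 4 with the smallest p in each of 5 pathway lists, check genes, and the 2 genes most like each member of at least 1 CPM; Hgfac and Errfi1 were named after their values were seen. Some genes of the lists are not reported here. No column of per-sample values was left out.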

Additional observations from a re-analysis of the deposited data

How the results depend on the processing

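Of the 10 genes' log2 changes, 8 kept their direction in every alternative fit. That of Areg was 0.01 without control replicate 1 and that of Hgf -0.09 without control replicate 3. Over the fits without 1 library, log2 changes ranged from 0.07 to 0.14 for Egfr, 0.09 to 0.26 for Erbb2, 0.10 to 0.18 for Erbb3, 0.05 to 0.36 for Erbb4, -0.13 to -0.02 for Met, 0.17 to 0.42 for Btc, -0.31 to 0.01 for Areg, 0.26 to 0.39 for Hbegf, -0.39 to -0.18 for Tgfa and -0.09 to 0.14 for Hgf. Hbegf passed in 3 of 16 alternative fits: without a filter (log2 change 0.33), by DESeq2 (0.34) and with the replicate block (0.33), so that the count of members called higher was 1 in each; the cause was not tested. Under the filter of 1 CPM in 3 libraries Erbb4 was not tested.

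Over all genes, 156 were higher and 25 lower in prolactin. Without a filter these counts were 470 and 127, by DESeq2 779 and 298, and with prolactin replicates 2 and 3 summed, which leaves 2 prolactin samples, 42 and 2. The filter of 1 CPM gave 46 lower. Without 1 library they ranged from 39 to 342 and from 1 to 234. In the lists, DESeq2 called 1 further ERBB ligand lower, 2 genes of ligand shedding and HGF activation, 2 feedback inhibitors and 2 ERK-induced transcripts higher, and 1 ERK-induced transcript lower; the fit without a filter called 2 of ligand shedding, 1 feedback inhibitor and, lower, 1 ERK-induced transcript. The filter of 1 CPM called 1 feedback inhibitor. Without 1 library, the counts ranged from 0 to 1 for ligand shedding and feedback inhibitors (higher) and for ERK-induced transcripts (lower); the 1 was without control replicate 3.

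Same-numbered libraries are not known to be paired: their deviations from the group means correlated at 0.44, 0.29 and -0.04 for numbers 1, 2 and 3, and prolactin replicate 3 correlated best with control replicate 2. With the replicate number as a block, 464 genes were higher and 134 lower, with Hbegf, 1 gene of ligand shedding (Plau) and 1 feedback inhibitor (Dusp5) higher and 1 ERK-induced transcript (Etv5) lower. The scalings moved the median log2 change of all genes by at most 0.011. Erbb4 and Hgf rest on the fewest reads, 669 and 4857 over the 6 libraries.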
